A study of Mus musculus with 4 samples.

Results

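Simple epithelial keratins are the keratins of one-layered epithelia. They were taken here as 6 genes, Krt7, Krt8, Krt18, Krt19, Krt20 and Krt23, by their gene names in the deposited tables, which list 25814 genes and 53 keratin genes in all. RNA was sequenced from primary keratinocytes (KCs) grown from the tail epidermis of adult 129/sv mice, with 2 libraries labelled wildtype (WT) and 2 labelled Nfat5-/-. All 4 cultures were untreated and were kept in a serum-free KC medium with 0.06 mM calcium, so low calcium was shared by both groups. The Nfat5-/- mice lacked NFAT5, a transcription factor that responds to osmotic stress, in the whole animal and not in KCs alone, and the WT mice were their littermates. The titles number 2 replicates for each genotype, and the labels give no culture time for any library.

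Keratins form the intermediate filaments of epithelial cells. Each filament subunit pairs one type I (acidic) with one type II (basic) keratin, and a keratin without a partner is degraded. Krt8 (type II) and Krt18 (type I) are the basic pair of liver, gut and many glands. Krt7 (type II) and Krt19 (type I) are typical of ducts and glands. Krt20 marks intestinal epithelium, the urothelium and the Merkel cells of the skin, and Krt23 is a type I keratin of low abundance in most tissues. In the epidermis, basal KCs build their filaments from Krt5 and Krt14 instead, and wounded or cultured KCs add Krt6a, Krt16 and Krt17.

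The members lie in the mouse type II and type I keratin clusters (GRCm38 coordinates). Krt7 (ENSMUSG00000023039) lies at chr15:101411043-101430313 on the plus strand, with 13 exons. Krt8 (ENSMUSG00000049382) lies at chr15:101996698-102004482 on the minus strand, with 9 exons. Krt18 (ENSMUSG00000023043) lies at chr15:102028180-102032027 on the plus strand, with 7 exons. Krt18 is the one type I gene that sits in the type II cluster. The 5′ ends of Krt8 and Krt18 in the tables face each other 23698 bases apart, with 0 listed genes starting between them. The other 3 type I genes lie within 720 kb of chromosome 11, all on the minus strand, namely Krt20 (ENSMUSG00000035775, chr11:99428403-99438150), Krt23 (ENSMUSG00000006777, chr11:99477974-99493137) and Krt19 (ENSMUSG00000020911, chr11:100140810-100148665).

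The promoters of the 3 abundant members are shown because their RNA levels carry the results. Each window runs from 250 bases before to 50 bases after the RefSeq start site (GRCm38.p6), 5′ to 3′ on the gene's strand, and capitals mark matches to a GC box (GGGCGG) or a TATA motif (TATAAA) on either strand. The windows are chr15:101412153-101412452 for Krt7, chr15:102004293-102004592 for Krt8 and chr15:102027966-102028265 for Krt18. Overlapping matches are run together.
Krt7: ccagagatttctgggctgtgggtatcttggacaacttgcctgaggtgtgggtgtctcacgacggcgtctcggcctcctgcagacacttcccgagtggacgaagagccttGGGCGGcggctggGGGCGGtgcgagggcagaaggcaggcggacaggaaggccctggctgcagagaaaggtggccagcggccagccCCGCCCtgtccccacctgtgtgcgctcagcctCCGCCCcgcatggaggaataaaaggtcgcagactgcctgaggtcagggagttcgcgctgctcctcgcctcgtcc
Krt8: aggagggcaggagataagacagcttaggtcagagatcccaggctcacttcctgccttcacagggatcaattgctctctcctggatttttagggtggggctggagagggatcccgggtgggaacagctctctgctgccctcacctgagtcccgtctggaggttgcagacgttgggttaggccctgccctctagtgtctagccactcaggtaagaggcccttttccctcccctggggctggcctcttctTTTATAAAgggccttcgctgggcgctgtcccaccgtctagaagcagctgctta
Krt18: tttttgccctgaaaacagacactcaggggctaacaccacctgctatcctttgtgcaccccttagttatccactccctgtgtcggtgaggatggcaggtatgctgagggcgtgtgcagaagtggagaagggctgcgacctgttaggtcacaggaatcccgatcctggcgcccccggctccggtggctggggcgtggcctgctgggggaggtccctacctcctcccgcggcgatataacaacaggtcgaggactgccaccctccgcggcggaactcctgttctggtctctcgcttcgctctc

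Krt7 held 4 GC boxes, at positions -141 and -128 on its own strand and at -56 and -24 on the opposite strand. In the Krt8 window TATAAA was matched at -1 on its own strand and at -3 on the opposite strand, right at the RefSeq start site. The 5′ end of Krt8 in the tables lies 140 bases from that start site, and that of Krt7 lies 1360 bases away. The Krt18 window held neither motif. An AP-1 motif (TGANTCA) and an NFAT core (TGGAAA) were matched in 0 of the 5 member promoters in the RefSeq table, against 7.8% and 21.4% of all 32851 promoters of the same length. A GC box was in 35.7% and a TATA motif in 13.6% of all promoters, and in 1 and 2 of the 5. These matches describe letters in a short window.

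One further sequence matters for reading the Krt8 values. Mouse Krt8 has a processed pseudogene, Krt8-ps, at chr7:23357125-23358069, which is not among the genes of the tables. It matched 941 bases of the 1958-base Krt8 transcript at 98.6% identity. Of the 1900 windows of 59 bases, the read length of the study, 478 (25.2%) were found letter for letter in Krt8-ps. The first of them starts at the Krt8 start codon and lies in the coding part of exon 1 (chr15:102004181-102004239, minus strand).
Krt8 and Krt8-ps: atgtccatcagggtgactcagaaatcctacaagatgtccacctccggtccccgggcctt

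A read from this stretch cannot be assigned to either copy. A noncoding RNA gene, Gm36026, overlaps the Krt8 5′ end on the opposite strand (chr15:102004212-102009442) and shares 102 bases with the Krt8 transcript, so reads there cannot be told apart without strand. Together 51.8% of the Krt8 transcript lay in such copies, at 95% identity or more over at least 59 bases. The figure was 1.5% for Krt7 and 0 for Krt18, Krt19, Krt20 and Krt23. Of the Krt8 exon reads in the deposited data 50.6% were unique, that is, mapped to one place, with a range of 50.3% to 50.9% over the 4 libraries. Essentially all exon reads of the other members were unique.

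The libraries held 16219445 to 23494436 reads in genes, with 15825 to 16330 genes detected, and 1.79% to 1.97% of reads fell in introns. Nfat5 itself had 408 and 929 reads in the WT libraries and 715 and 770 in those labelled Nfat5-/-. The fitted log2 change, 0.09 (SE 0.26, edgeR adjusted p = 0.913), did not separate the labels, and whether the counted exons include the altered part of the gene was not given in the sources used here. By western blot the authors report no NFAT5 protein in KCs of Nfat5-/- mice, and whether the blot used these same cultures was not given. KC markers had a summed RPKM of 12754 to 15439 over 11 genes, most of it Krt5 and Krt14. Krt15, also on that list, had only 3 to 18 reads a library. RPKM counts reads relative to exon length and to the reads mapped in a library, so levels of different genes can be compared on it.

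All 6 simple epithelial keratins had higher levels in both libraries labelled Nfat5-/- than in both WT libraries. Krt8 and Krt18 were abundant in both groups, Krt7 was moderate, and Krt19, Krt20 and Krt23 were near the limit of detection. By edgeR's quasi-likelihood test on gene reads, with Benjamini-Hochberg adjustment over the 12614 genes tested, 3 of the 6 members were called higher (Krt7, Krt8 and Krt18). Krt19 and Krt23 were tested and not called, and Krt20 did not enter this fit. Over all genes tested 1.27% were called in either direction and 0.943% were called higher. Groups that did not overlap, with both Nfat5-/- libraries higher, were found for 23.3% of all genes tested, so this ordering alone is common. The median log2 fold change over all genes tested was -0.01.

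Krt19 and Krt23 passed the filter on low counts only through the Nfat5-/- libraries, and Krt20 did not pass it in any library. Counts over the tested members therefore do not speak for all 6. Fewer cells with a given keratin and less RNA of it per cell cannot be told apart in these bulk libraries. With 2 libraries a group, p-values measure the spread between these cultures.

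**Figure D1:**
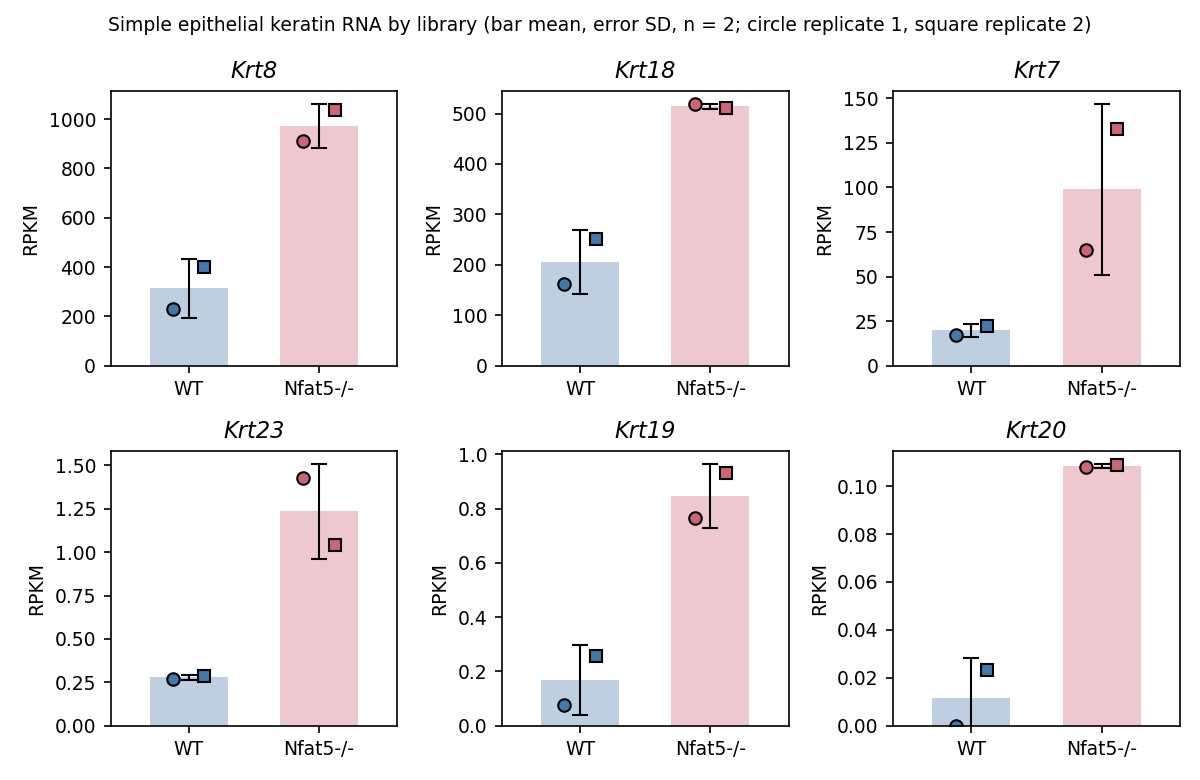
RPKM (vertical axes, linear, each from 0) of the 6 simple epithelial keratins in the 4 libraries. Bars are group means, error bars SD (n = 2), circles replicate 1 and squares replicate 2. In each panel both Nfat5-/- points lie above both WT points, with group means of 974 RPKM for Krt8 and 1.24 RPKM for Krt23 in the libraries labelled Nfat5-/-.

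Krt8 was the most abundant member. WT replicates 1 and 2 had 229 and 399 RPKM of it. Replicates 1 and 2 of Nfat5-/- had 911 and 1037 RPKM. The WT libraries differed more between themselves, and the groups did not overlap. The mean rose from 314 ± 120 to 974 ± 89.4 RPKM (SD, n = 2), a ratio of 3.1, and the log2 fold change was 1.65 (SE 0.24, 95% interval 1.09 to 2.22, edgeR adjusted p = 0.0297). Among all genes ranked by RPKM, Krt8 stood at place 271 and 152 in the WT libraries and at 63 and 41 in those labelled Nfat5-/-.

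The fitted change of Krt8 was the same on reads that mapped to one place, which leave out reads shared with Krt8-ps but may include reads from Gm36026. Unique exon reads numbered 3777 and 8694 in WT and 21850 and 19563 in Nfat5-/- KCs. Fitted on unique exon reads alone, the log2 fold change was 1.65 (SE 0.23, edgeR adjusted p = 0.0167). RPKM from unique reads alone, still divided by the full exon length, was 116 and 200 for WT against 463 and 523 for Nfat5-/-. Reads spanning an exon junction made up 26.6% to 27.6% of Krt8 exon reads in all 4 libraries.

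Krt18, the type I partner of Krt8, followed it. RPKM was 161 and 251 for the WT cultures, against 518 and 510 for those labelled Nfat5-/-. The Nfat5-/- values were close together and above both WT values. The mean rose from 206 ± 63.4 to 514 ± 5.68 RPKM (SD, n = 2), a ratio of 2.49, and the fitted log2 change was 1.34 (SE 0.19, 95% interval 0.88 to 1.79, edgeR adjusted p = 0.0294). All but a few of its reads were unique, and 25.6% to 26.1% spanned a junction.

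The calls for Krt8 and Krt18 needed both Nfat5-/- libraries. Without Nfat5-/- replicate 1 the edgeR adjusted p was 0.105 for Krt8 (log2 fold change 1.76) and 0.13 for Krt18 (1.34). Without Nfat5-/- replicate 2 it was 0.197 for Krt8 (1.54) and 0.184 for Krt18 (1.33). Leaving out either WT library kept both calls, with log2 fold changes of 1.32 and 2.11 for Krt8 and of 1.06 and 1.69 for Krt18.

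Krt7, a type II keratin of ducts and glands, had the largest fitted log2 change of the 3 called members and the largest SE of it. Its RPKM was 17.2 and 22.4 for WT, against 65.1 and 133 for Nfat5-/-. The Nfat5-/- libraries differed by more than the whole WT level, yet the lower of them lay well above both WT libraries. The mean rose from 19.8 ± 3.68 to 98.9 ± 47.8 RPKM (SD, n = 2), a ratio of 5.0, and the fitted log2 change was 2.34 (SE 0.32, 95% interval 1.58 to 3.1, edgeR adjusted p = 0.0252). Its rank among all genes moved from 3315 and 2684 to 984 and 484. The call was kept when any one library was left out, with log2 fold changes of 1.72 to 2.78. The value of 1.72 was obtained without Nfat5-/- replicate 2 (adjusted p = 0.0492).

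The remaining members were rare, and their reads are given in place of levels. Krt19, a small type I keratin that lacks most of the tail domain, had 2 and 9 reads in WT and 29 and 28 in Nfat5-/- KCs. Its log2 fold change was 2.25 (SE 0.54, 95% interval 0.98 to 3.52), and it missed the threshold (edgeR adjusted p = 0.112). Without WT replicate 2, which leaves 1 WT library with 2 reads, it was 3.42 (adjusted p = 0.0489). With no filter on low counts and all libraries kept it was 2.26 (adjusted p = 0.000935). That fit called 1137 genes, against 160 in the fit reported here. It gave Krt7 an edgeR adjusted p of 1.79e-68 with 2 libraries a group, so its p-values are not read as support.

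Krt23 had 8 and 10 reads in WT and 56 and 31 in Nfat5-/- KCs, or 0.269 and 0.289 against 1.43 and 1.04 RPKM. Its log2 fold change was 2.10 (SE 0.40, 95% interval 1.17 to 3.03), also short of the threshold (edgeR adjusted p = 0.062). It passed on unique exon reads (log2 fold change 2.15, adjusted p = 0.039), in a fit that tested 11680 genes and called 218. All exon reads of Krt23 were unique, so that fit took no shared reads from it. In the fit reported here Krt23 passed the filter on low counts only through the Nfat5-/- libraries.

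Krt20 had 0 and 1 reads in WT and 5 and 4 in Nfat5-/- KCs. Per read sequenced this was 9 against 1 read, a ratio of 8.08 whose exact 95% interval ran from 1.12 to 354 and covers counting error only. The WT library with 0 reads allows a level of up to 0.185 CPM (gene reads scaled to equal library totals), that is, 3 reads. Krt20 values were at or near this limit, and it did not enter the fit reported here. Fitted with no filter on low counts it was not called (edgeR adjusted p = 0.423).

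Introns gave a second, sparse readout of the same genes. Krt7 had 16 and 13 intron reads in WT and 38 and 54 in Nfat5-/- KCs, a ratio of 2.84 per gene read of the library. Krt8 had 2 and 10 against 20 and 20 (ratio 3.28), and Krt18 had 1 and 5 against 15 and 7 (ratio 3.46). For each of these genes both Nfat5-/- libraries were higher on this scale than both WT libraries. Krt19 and Krt20 had 0 intron reads in all libraries, and Krt23 had 1 in WT and 2 in Nfat5-/- KCs.

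Filaments need a type I and a type II keratin, so the balance within the family was compared on RPKM. The RPKM ratio of Krt8 to Krt18 was 1.42 and 1.59 in WT and 1.76 and 2.03 in Nfat5-/- KCs. The groups did not overlap, and the log2 ratio differed by 0.33 between their means. The exact two-sided permutation test gave p = 0.333, the smallest value possible with 2 libraries against 2. The order was the same on unique reads, with ratios of 0.719 and 0.799 against 0.895 and 1.03, which keep the full Krt8 exon length as divisor and are lower by that construction. It was also the same on junction-spanning reads, where the read ratio, not scaled to length, was 2.04 and 2.30 in WT and 2.56 and 2.85 in Nfat5-/- KCs.

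Summed over the 2 type II members RPKM was 246 and 421 for WT, against 976 and 1170 for Nfat5-/-. Summed over the 4 type I members it was 162 and 252 against 520 and 512. The type II to type I ratio moved from 1.52 and 1.67 to 1.88 and 2.29 (exact permutation p = 0.333).  The RPKM ratio of Krt7 to Krt8 was 0.0751 and 0.0561 in WT and 0.0715 and 0.128 in Nfat5-/- KCs, so the groups overlapped (exact permutation p = 0.667). Krt8 and Krt18 together made up 92.0% to 96.6% of the simple keratin RPKM.

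Against the whole keratin family the members were a minority that grew. They made up 1.95% and 3.54% of all keratin RPKM in WT and 6.56% and 6.37% in Nfat5-/- KCs (means 2.75 ± 1.13% and 6.47 ± 0.133%, SD, n = 2, exact permutation p = 0.333, the smallest possible). Krt8 RPKM was 4.58% and 7.86% of that of Krt5 in the WT libraries, and 17.6 ± 0.515% of it in those labelled Nfat5-/- (SD, n = 2). Krt18 RPKM was 2.31% and 4.69% of that of Krt14 in WT and 10.1% and 8.43% in Nfat5-/- KCs. Krt8 took place 5 among all keratins by RPKM in all 4 libraries, and Krt7 moved from place 11 in both WT libraries to place 9 in both Nfat5-/- libraries.

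**Figure D2:**
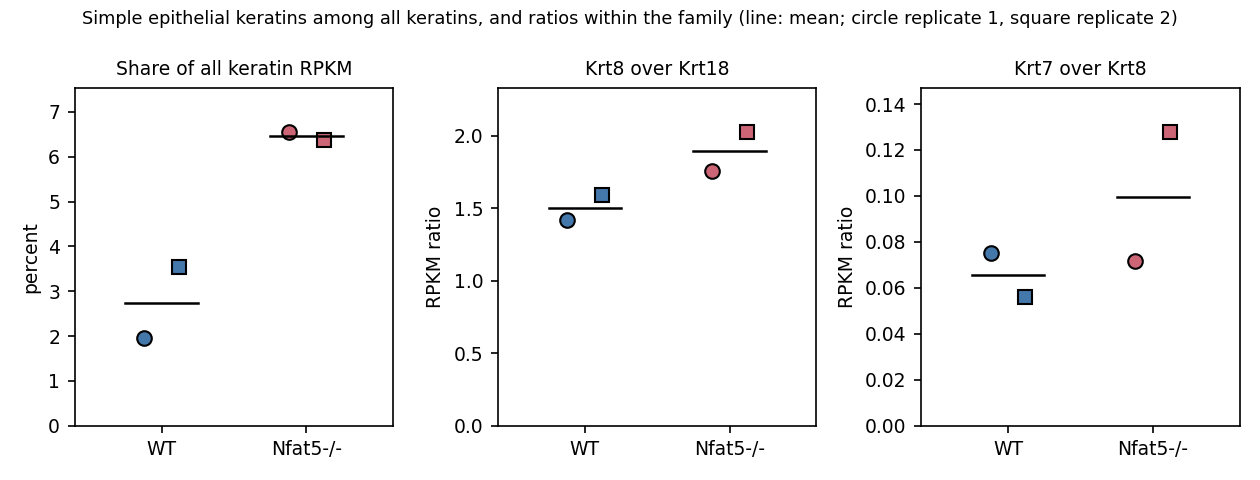
Left, the summed RPKM of the 6 simple epithelial keratins as a percent of all keratin RPKM. Middle and right, the RPKM ratios of Krt8 to Krt18 and of Krt7 to Krt8. Circles are replicate 1, squares replicate 2 and lines group means. The groups are apart on the left and in the middle (1.42 and 1.59 against 1.76 and 2.03) and overlap on the right.

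The other keratins were counted beside them from a list of 48 genes. Of the 46 found in the tables, 16 were tested, 1 was called higher and 0 lower, with a median log2 fold change of 0.7, and 12 had 0 reads in all libraries. The called gene was Krt17, a type I keratin of wounded and activated KCs, which rose from 4561 ± 82 to 7428 ± 854 RPKM (SD, n = 2, log2 fold change 0.72, SE 0.12, edgeR adjusted p = 0.0399). Its call was lost without WT replicate 1 (0.75, adjusted p = 0.0649), WT replicate 2 (0.70, 0.0633) or Nfat5-/- replicate 2 (0.58, 0.0888). At an unadjusted p under 0.05 there were 10 of the 16, with 9 higher and 1 lower, against 14.6% of all genes tested in either direction. Of the 16, 3 (Krt1, Krt15 and Krt79) passed the filter only through the Nfat5-/- libraries. The basal pair had log2 fold changes of 0.16 for Krt5 (SE 0.10, adjusted p = 0.536) and -0.12 for Krt14 (SE 0.15, adjusted p = 0.777). Krt6a, a type II keratin induced by wounding, had 0.26 (SE 0.12, adjusted p = 0.392), with 50.5% of its exon reads unique. Krt16 and Krt6b, wound keratins of lower level that were chosen after their values were seen, were higher in both Nfat5-/- libraries without passing the threshold. Krt16 had 191 and 137 RPKM in WT against 278 and 349 in Nfat5-/- KCs (log2 fold change 0.95, SE 0.18, edgeR adjusted p = 0.0654). Krt6b, with 21.4% of its exon reads unique, had 88.2 and 75.6 RPKM against 140 and 250 (1.28, SE 0.26, adjusted p = 0.0751).

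**Figure D3:**
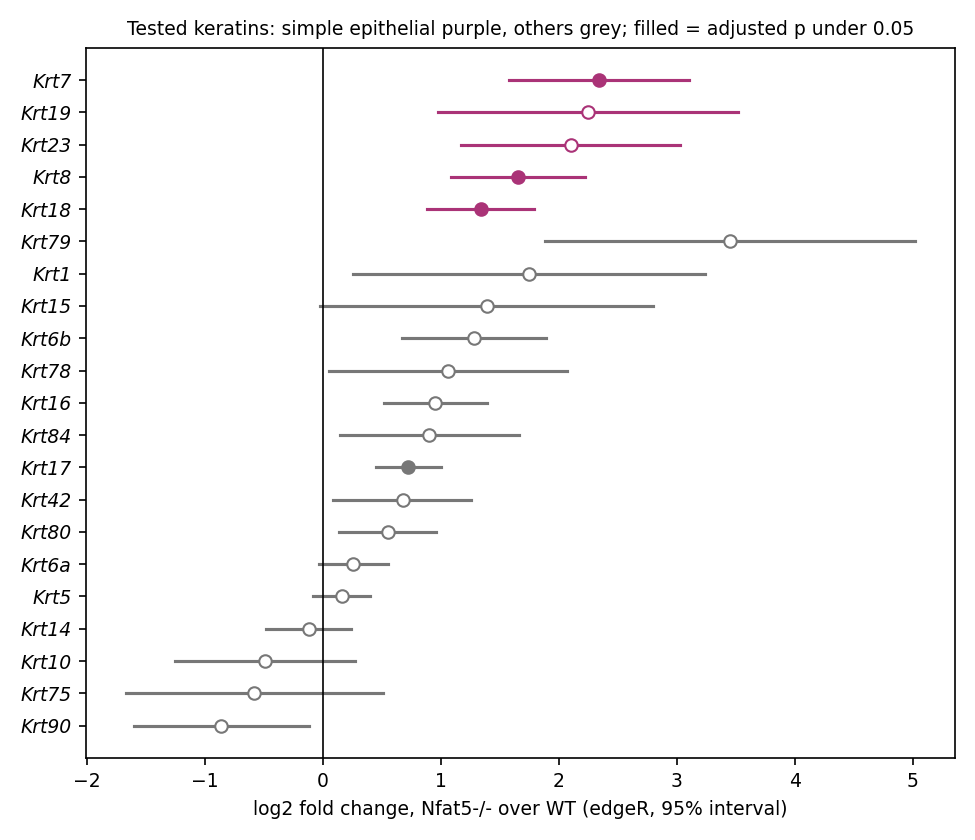
Fitted log2 fold change, Nfat5-/- over WT (horizontal axis, edgeR), of each tested keratin, with its 95% interval as a line. Simple epithelial keratins are purple, other keratins grey, and filled points have an adjusted p under 0.05. The filled purple points run from 1.34 for Krt18 to 2.34 for Krt7, and Krt5, Krt6a and Krt14 lie close to 0.

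Genes next to the members on the chromosomes were read in the same fit. Within 100 kb of a member 32 other genes start, of which 24 are keratins. Of the 9 tested, 0 were called by edgeR, 3 had an unadjusted p under 0.05 (14.6% of all genes tested did) and DESeq2 called 1, limma 0, and their median log2 fold change was 0.1. Eif4b, a translation initiation factor gene downstream of Krt18 that was chosen after its value was seen, averaged 83.4 and 84.3 RPKM in the groups (log2 fold change 0.03, adjusted p = 0.917). Krt78 and Krt79, also chosen after their values were seen, lie in this order from Krt8 on the side away from Krt18. Krt78 had a log2 fold change of 1.06 (SE 0.43, adjusted p = 0.323). Krt79 had 3 and 4 reads in WT and 27 and 56 in Nfat5-/- KCs (3.45, SE 0.67, adjusted p = 0.0654). Krt79 is among the 2 tested neighbours that passed the filter only through the Nfat5-/- libraries.

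Other intermediate filament genes had 1 of 11 tested called, higher, and a median log2 fold change of 0.16. That gene was Nefm, a neurofilament subunit, which rose from 8 and 13 to 68 and 88 reads (log2 fold change 2.79, SE 0.40, edgeR adjusted p = 0.0294). Lmna, which encodes nuclear lamins A and C, had a log2 fold change of 0.16 (adjusted p = 0.523). Vim, the filament gene of mesenchymal cells, had 2.80 ± 1.68 RPKM in the WT libraries and 6.46 ± 2.15 in those labelled Nfat5-/- (SD, n = 2, log2 fold change 1.25, adjusted p = 0.237).

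Of 16 genes for keratin linkers and regulators, all tested, 0 were called by edgeR, 5 had an unadjusted p under 0.05 (14.6% of all genes tested did), DESeq2 called 2 and limma 0. Their log2 fold change was positive for 15, with a median of 0.36. Dsp, whose product desmoplakin anchors keratin filaments at desmosomes, had 0.44 (SE 0.29, adjusted p = 0.545). Sfn, a 14-3-3 protein gene of stratified epithelia, had 0.01 (adjusted p = 0.981), with 46.8% of its exon reads unique.

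Other genes of one-layered epithelia gave 2 calls among 21 tested, both higher, and a median log2 fold change of 0.22. Both were claudins, the strand proteins of tight junctions. Cldn3 rose from 30.4 and 52.4 to 128 and 96.8 RPKM (log2 fold change 1.46, SE 0.25, edgeR adjusted p = 0.044). Cldn6 rose from 7 and 6 to 185 and 67 reads (log2 fold change 4.05, SE 0.51, adjusted p = 0.0218), and it passed the filter on low counts only through the Nfat5-/- libraries. The 4 most abundant genes of this list were not called, with log2 fold changes of 0.04 for Cldn4, a further claudin gene, -0.06 for Epcam, an epithelial adhesion gene, 0.03 for Spint2, a membrane protease inhibitor gene, and 0.28 for Cdh1, the E-cadherin gene (edgeR adjusted p = 0.365).

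Among 21 genes for transcription factors that have been linked to simple keratin promoters, 20 were tested and 2 were called, both higher, with a median log2 fold change of 0.13. Fos, an AP-1 subunit, rose from 10.4 ± 0.386 to 17.5 ± 0.482 RPKM (SD, n = 2, log2 fold change 0.76, SE 0.11, edgeR adjusted p = 0.0319). Grhl3, a grainyhead factor of epidermal differentiation, rose from 2.97 ± 0.357 to 6.44 ± 0.109 RPKM (log2 fold change 1.11, SE 0.15, adjusted p = 0.0252). At an unadjusted p under 0.05 the list had 5 genes, all higher (14.6% of all genes tested in either direction), and DESeq2 called 4. Junb, an AP-1 subunit gene of higher level, had a log2 fold change of 0.10 (adjusted p = 0.802). The other AP-1 genes of the list, given after their values were seen, had 0.49 for Fosl1 (edgeR adjusted p = 0.12), 0.52 for Fosl2 (0.0985), 0.17 for Jun (0.496) and -0.16 for Jund (0.615).

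Markers of other cells that carry simple keratins, or that a tail preparation could hold, were read beside these results. Merkel cells express Krt8, Krt18 and Krt20. Of their 14 other markers 3 were tested and 1 was called (Nefm), summed RPKM was 2.01 and 2.13 for WT against 2.49 and 3.33 for Nfat5-/-, and the defining factors Atoh1 and Pou4f3 had 0 reads in all libraries. Sweat gland markers summed to 18.7 to 19.2 RPKM for WT and 17.3 to 19.1 RPKM for Nfat5-/-, most of it Slc12a2, an ion cotransporter gene, with 1 of 2 tested called (Calml3, a calmodulin-like gene, log2 fold change 3.33, adjusted p = 0.0416) and Foxi1 at 0. Calml3 passed the filter only through the Nfat5-/- libraries. Sebaceous gland markers summed to 1.95 to 2.69 and 4.69 to 4.81 RPKM, with 0 of 3 tested called by edgeR (2 at an unadjusted p under 0.05, 1 by DESeq2, 0 by limma), and Mc5r, Awat1, Elovl3, Pparg and Plin4 were at 0. Cidea, among the 2 at an unadjusted p under 0.05, passed the filter only through the Nfat5-/- libraries.

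Summed RPKM of mesothelium markers was 4.68 and 6.77 for WT against 36.4 and 40.5 for Nfat5-/-. Nearly all of this was Msln, the mesothelin gene, the one called of 3 tested (log2 fold change 2.82, SE 0.19, edgeR adjusted p = 0.00456), and Upk3b, Wt1 and Lrrn4 were at 0 reads. Upk1b, a uroplakin gene that passed the filter only through the Nfat5-/- libraries, had 3 and 3 reads in WT against 23 and 29 (log2 fold change 2.95, adjusted p = 0.0601). Of 6 smooth muscle markers 5 were tested, and Acta2, Tagln, Cnn1 and Myl9 were called higher. Myh11, with 1 and 1 reads in WT against 22 and 40, was called too, but it passed the filter only through the Nfat5-/- libraries and lost its call without any one of the 4 libraries. The summed RPKM of the list was 186 and 152 for WT against 524 and 832 for Nfat5-/-, most of it Acta2, the smooth muscle actin gene. Fibroblast markers summed to 0.514 to 0.598 and 0.85 to 1.83 RPKM (0 of 3 tested called by edgeR, 1 at an unadjusted p under 0.05, 0 by DESeq2 or limma). The gene at an unadjusted p under 0.05, Thy1, passed the filter only through the Nfat5-/- libraries.

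The summed RPKM of the melanocyte markers was 7.76 and 7.34 for WT against 2.31 and 3.26 for Nfat5-/-. Of 5 tested, 1 was called by edgeR, lower (Tyrp1, a melanin synthesis enzyme gene), 3 had an unadjusted p under 0.05 and DESeq2 called 2. The log2 fold changes were -2.04 for Tyrp1, -1.65 for Dct (adjusted p = 0.0923) and -1.30 for Pmel (0.0772), which are pigment genes. Those of Tyr and Mitf, chosen after their values were seen, were -1.10 and 0.27. Hair follicle bulge markers summed to 87.5 to 90.3 and 80.0 to 86.2 RPKM (0 of 6 tested called), endothelial markers to 0.735 to 0.777 and 0.555 to 0.687 RPKM (0 of 2) and immune markers to 14.3 to 21.0 and 18.1 to 18.5 RPKM (0 of 3). At an unadjusted p under 0.05 in edgeR these lists had 2, 0 and 1 genes, and DESeq2 and limma called 0. Of the 11 KC markers 1 was called, Lamb3, a laminin chain gene, which fell from 413 ± 22.3 to 197 ± 9.52 RPKM (SD, n = 2, log2 fold change -1.05, SE 0.10, edgeR adjusted p = 0.0123). Of the called genes of the lists above beside the keratins, Acta2, Tagln and Msln kept their calls whichever single library was left out. The other calls were lost without at least one of the Nfat5-/- libraries, for example Cldn3 without replicate 1 (adjusted p = 0.172), and those of Fos (0.212), Grhl3 (0.184) and Nefm (0.207) without replicate 2. The part of the smooth muscle, mesothelium, sebaceous gland and melanocyte marker levels in the keratin changes was not tested.

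Finally, the genes whose 4 values ran most like those of the 3 abundant members were listed among 9271 genes, by the root mean square difference of centred log2 CPM over the 4 libraries. For Krt8 they were Foxn1 (0.152), Krt18 (0.192), Itm2a (0.193), Ifi27l2b (0.198) and Plat (0.204), so its filament partner took place 2. For Krt18 the nearest were Ddah2 (0.091), Nid1 (0.138) and Rnf128 (0.152), and Krt8 took place 11. For Krt7 they were Mcam (0.143), Cnn1 (0.146), Dgkk (0.202), Fn1 (0.215) and Cdkn2a (0.216), while Krt8 took place 28 and Krt18 place 67. With 4 values a gene these distances are a description.

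**Figure D4:**
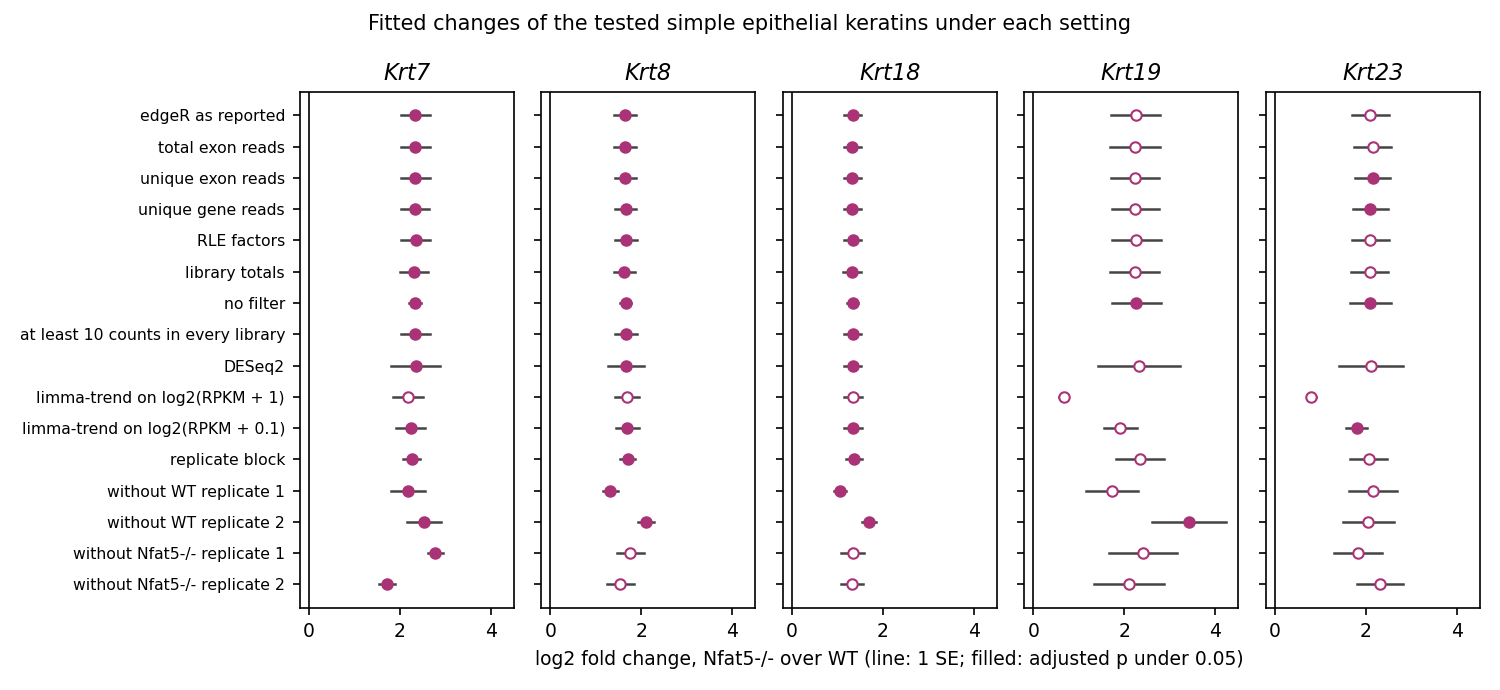
Fitted log2 fold change, Nfat5-/- over WT (horizontal axis), of the 5 tested simple epithelial keratins under each way of counting, scaling, filtering and testing (vertical axis). Lines show 1 SE and filled points an adjusted p under 0.05. All values lie above 0, and the calls of Krt8 and Krt18 are lost when either Nfat5-/- library is left out and with limma on log2(RPKM + 1), where Krt7 is lost too.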

How the data were processed

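The authors sequenced poly(A)-selected RNA as single-end reads, trimmed adapters and mapped them with the CLC Genomics Workbench to mouse genome GRCm38. Libraries were made from total RNA with a NEBNext kit, and no strand setting is given in the sources used here. The deposited tables hold raw counts per gene (total and unique gene reads, exon reads, intron reads) and RPKM values computed by the authors from total exon reads, written with decimal commas. No columns of other samples were left over (0).

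Gene reads were fitted with edgeR 4.0.16 (quasi-likelihood F test, TMM, filterByExpr at about 0.497 CPM, genotype only, two-sided) in R 4.3.3, with Benjamini-Hochberg adjustment over all 12614 genes tested and a threshold of 0.05. The steps were tested on simulated data. DESeq2 1.42.0, limma 3.58.1, unique reads, other scalings and filters, a replicate block and leaving out each library were alternatives. Ratios and shares were compared by exact permutation over libraries. Totals of 16219445 to 23494436 gene reads put 3 reads at 0.128 to 0.185 CPM, and intervals of single counts cover counting error only.

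The 6 genes, the gene lists and the alternatives were chosen with earlier results of these data known. Beside the 6, genes were named where they passed the threshold or were among the 4 most abundant of a list, where they passed it within 100 kb of a member, and as the 5 nearest in pattern among genes whose higher group mean reached 2 RPKM (log2 CPM with a prior count of 2). Some genes that this rule names are not reported here. Copies of each transcript and the coding part were found in GENCODE M21 and promoters came from RefSeq, where Krt19 was not matched. Whether replicate numbers pair the libraries is not known, and the reported fit did not use them.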

Additional observations from a re-analysis of the deposited data

How the results depend on the processing

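The fitted changes of Krt7, Krt8, Krt18, Krt19 and Krt23 stayed above 0 under every alternative run, and none reversed. Of 160 genes called, unique gene reads gave 251, no filter on low counts 1137, DESeq2 427 and limma on log2(RPKM + 1) 65, and leaving out single libraries gave 16 to 478. Of the 3 members called, no filter gave 5 of 6 (Krt20 was not called, adjusted p = 0.423) and limma on log2(RPKM + 1) gave 0, with 1 to 4 when single libraries were left out. Of 1 other keratin called, unique exon reads gave 2, unique gene reads 4, library totals 4, no filter 9, DESeq2 3, both limma fits 0 and the replicate block 0, with 0 to 2 when single libraries were left out. With limma on log2(RPKM + 1) the differences were 2.19 for Krt7 (adjusted p = 0.0671), 1.68 for Krt8 (0.0691), 1.35 for Krt18 (0.068), 0.67 for Krt19 (0.0674) and 0.80 for Krt23 (0.0536), and a pseudocount of 1 RPKM shrinks the changes of the rare members. When single libraries were left out, log2 fold changes ran from 1.72 to 2.78 for Krt7, 1.32 to 2.11 for Krt8, 1.06 to 1.69 for Krt18, 1.73 to 3.42 for Krt19 and 1.83 to 2.31 for Krt23. Krt19 passed the threshold with no filter (2.26). Krt23 passed it with unique exon reads (2.15), unique gene reads (2.10), no filter (2.10) and limma on log2(RPKM + 0.1) (1.80). Passes with no filter are not read as support, since that fit gave Krt7 an edgeR adjusted p of 1.79e-68. The cause of the moves between settings was not tested, save that fits without a library have fewer samples. In those fits the lone library of a group was assumed to vary like the other group. Krt19 and Krt23 have no value where 10 counts were required in every library, and no fold change is given for Krt20, which failed the filter on low counts. Depth limits Krt19, Krt20 and Krt23, whose WT counts were 0 to 10 reads.

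Deviations of libraries with the same replicate number in their titles correlated at -0.0652. With 2 libraries a group both numbers give this same value, so it cannot decide whether the replicate numbers pair the libraries. With the replicate block 132 genes were called, and the log2 fold changes were 2.26 for Krt7 (edgeR adjusted p = 0.00956), 1.70 for Krt8 (0.0124), 1.37 for Krt18 (0.0286), 2.35 for Krt19 (0.119) and 2.06 for Krt23 (0.0924), which changed no call among them. The block took away the call of Krt17, with 0 other keratins called.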
